A study of Mus musculus with 2 samples.

Results

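The genes described here are genes of water and urea transport, not all of them typical of the collecting duct. They are the water channels Aqp1, Aqp2, Aqp3, Aqp4, Aqp5 and Aqp11, the vasopressin receptor Avpr2 and the urea transporters Slc14a1 and Slc14a2. They were chosen by name as the non-control probes that the array assigns to these genes. This gave 14 probes, each with 1 spot per array, for 9 genes of the 34763 gene names on the array. The study used mIMCD3, a mouse line of inner medullary collecting duct epithelium, and compared its total RNA after 4 h with 10 ng/mL of the bone hormone FGF23 with that of unstimulated mIMCD3. Both groups grew in serum-containing medium, and no vasopressin, cAMP agonist or hyperosmotic medium is named for either. Each of 2 Agilent two-colour arrays held both RNAs, with FGF23 RNA in the dye Cy3 on array 1 and in Cy5 on array 2. Whether separate cultures lie behind the arrays is not given in the labels, so the spread between the 2 arrays may be technical. The p-values rest on that spread, pooled mostly over all genes, with 11.9 prior degrees of freedom against 1 residual.

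Aquaporins are channels through which water crosses cell membranes down an osmotic gradient. In collecting duct principal cells, vasopressin acts on the receptor encoded by Avpr2, cAMP and protein kinase A rise, vesicles carrying AQP2 fuse with the apical membrane, and water leaves across the basolateral channels AQP3 and AQP4. Slc14a2 encodes the UT-A urea transporters, which let urea pass in the inner medulla, and Slc14a1 encodes UT-B of the vasa recta and red blood cells.

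The array reads each gene through 60-base DNA probes, and 3 are shown because the measurements below turn on what they detect. The Aqp2 probe lies on chr15:99412578-99413554 of build mm9 on the plus strand. Its 60 bases span 977 bases of the genome, so it joins separated stretches of the gene. The second Aqp5 probe (chr15:99424655-99424714, plus strand) and the second Aqp11 probe (chr7:104877482-104877541, minus strand) are probes whose detection went with the dye. Sequences are as the array files give them, in the sense of the transcript, with no part marked.
Aqp2, A_51_P492298: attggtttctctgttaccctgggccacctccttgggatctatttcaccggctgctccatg
Aqp5, A_55_P2071236: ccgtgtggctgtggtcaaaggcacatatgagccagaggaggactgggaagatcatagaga
Aqp11, A_55_P2177953: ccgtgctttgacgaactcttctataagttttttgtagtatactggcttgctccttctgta
Their G plus C content was 53.3%, 53.3% and 40%. Over the 14 probes it ran from 30% in Aqp1 to 55% in the second Avpr2 probe. The letters AATAAA, the common polyadenylation signal found near the ends of transcripts, were in 2 of 14 probes, that of Aqp1 and the first of Avpr2, and in 10.1% of all 55681 probes, searched on the transcript strand only. Exon and UTR annotation was not used here.

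After 4 h of FGF23 none of the 9 genes passed the test. Of the 4 that were bright enough to test, the vasopressin-regulated channel Aqp2 had a fold of 0.947, Aqp1 of 1.02, the intracellular aquaporin Aqp11 of 1.12 and the urea transporter Slc14a2 of 1.16, each over n = 2 arrays. The other 5, Aqp3, Aqp4, Aqp5, Avpr2 and Slc14a1, had no probe that met the detection filter. Among all 19220 genes tested, 9 passed, all higher with FGF23, which is 0.0468%. That count depends on the processing: it was 0 with the scanner software's ratio or median centring, 5 with no background offset, 17 with the mean of a gene's probes and 79, of which 59 higher, with an intensity trend and robust prior. The test was limma's moderated test on both arrays with Benjamini-Hochberg adjustment over all genes and a threshold of 0.05. Detection rested on the scanner software's flag for spots well above background. A probe was kept if the same RNA, FGF23 or unstimulated, carried that flag on both arrays. By this filter 5 of 14 member probes were kept, against 48.4% of all probes.

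Markers of epithelium and some of the principal cell were detected in the line, and several others of the principal cell were not. Of 13 principal cell and collecting duct markers, 8 were measured, with mean signals over channels of 112100 for the keratin Krt18 and 1256 for the adhesion molecule Epcam. From the same list Aqp2, Scnn1a and Gata3 were flagged in all 4 channels, with mean signals of 167, 127 and 201. Besides Avpr2, the markers Hsd11b2, Fxyd4 and Elf5 had no flag in any channel. Of 5 inner medullary markers, 3 were measured, among them the member Slc14a2. Markers of other cell types were measured in part. For proximal tubule and thin limb 6 of 8 were measured, the brightest being Bst1 with a mean signal of 4151. Slc34a1 and Slc5a2 of that list were not. For endothelium 3 of 5 were measured, Kdr with 2767, Plvap with 122 and Pecam1 with 92.8. Cdh5 and the member Slc14a1 were not. For macrophage 2 of 4 were measured, Csf1r with 3002 and Cd68 with 327, and Ptprc and Adgre1 were not. Of the thick limb 2 of 5 were measured, of intercalated cells 2 of 6, of erythroid cells 1 of 5 and of fibroblasts 1 of 4. The proximal tubule and thin limb count includes the members Aqp1 and Slc14a2, and the 1 erythroid marker measured was Aqp1. These counts are therefore not separate from the member results. No marker on any list passed the test. In bulk RNA of this kind, fewer cells with a transcript and less transcript per cell cannot be told apart.

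Detection fell into separate patterns over the 14 probes. In both dyes on both arrays, 5 probes were well above background (45.6% of all probes), namely those of Aqp1 and Aqp2, the first of Aqp11 and both of Slc14a2. A further 4 probes were well above background in Cy5 on both arrays and in Cy3 on neither, against 3.05% of all probes: those of Aqp3, the first of Aqp4, the second of Aqp5 and the second of Aqp11. Since the dyes were swapped, each of these was detected in unstimulated cells on array 1 and in FGF23 cells on array 2. The second Aqp4 and first Aqp5 probes were flagged in Cy5 on array 1 only (4.46% of all probes). The remaining 3, both of Avpr2 and that of Slc14a1, had no flag, as did 43% of all probes. No member probe was detected in 1 RNA only on both arrays. Over all spots Cy5 was the brighter dye, with medians of 69.9 and 76.9 on arrays 1 and 2, against 52.5 and 54.5 in Cy3. Flags were also more frequent in Cy5, at 54.2% and 55.2% of spots against 48.2% and 48.7%. Of negative controls 1.62% were flagged in Cy5 on each array, against 0.649% and 0.325% in Cy3.

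**Figure D1:**
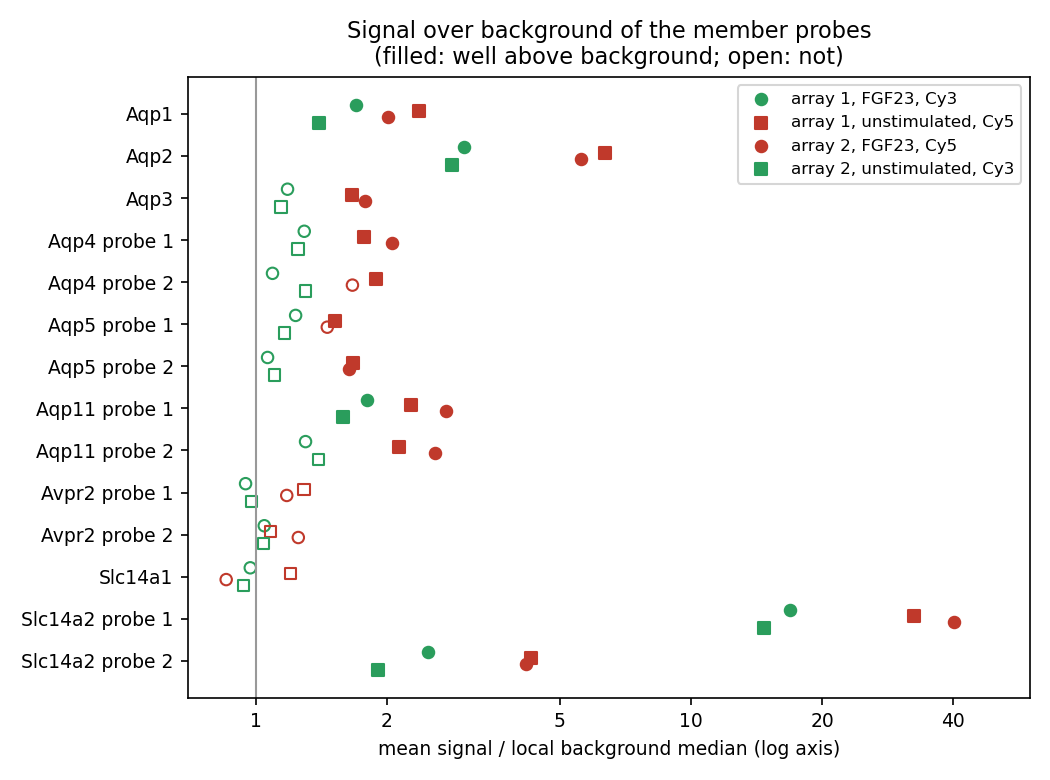
Mean signal of each of the 14 member probes divided by its local background median, on a log axis, for both RNAs on both arrays. Circles stand for FGF23 and squares for unstimulated RNA, green for Cy3 and red for Cy5, and filled symbols for spots well above background. The Aqp1, Aqp2, first Aqp11 and both Slc14a2 rows are filled throughout, and the open symbols of Aqp3, Aqp4 and Aqp5 are mostly green whichever RNA carried that dye.

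Vasopressin's receptor is the entry to the pathway, and neither of its probes was flagged in any channel. The first Avpr2 probe (A_51_P306933, chrX:71139568-71139627, mm9) read 37.0 with FGF23 and 51.6 without it on array 1, and 49.5 and 40.1 on array 2, as mean signals in linear scanner units with background included. The higher reading was the Cy5 one on each array. The second probe (A_55_P1994462, chrX:71139472-71139531) read 38.7 and 36.2 on array 1 and 43.9 and 41.7 on array 2. All 8 readings lay below the 99th percentile of the 308 negative-control spots in their channel, a yardstick chosen after the values were seen: 51.8 and 50.4 in Cy3, 66.3 and 74.2 in Cy5. The log2 ratios of these undetected spots were -0.14 and 0.034 for the first probe and 0.10 and -0.028 for the second, changing sign between arrays in each. Avpr2 thus has no fold here, and its level was not detectable at this signal.

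Aqp2, the channel that vasopressin inserts into the apical membrane, was detected in both RNAs on both arrays. Its probe read 117 with FGF23 and 235 without it on array 1, and 201 and 116 on array 2. The Cy5 reading of the probe was the higher on both, as was the Cy5 median over all spots. After normalization the log2 ratio of FGF23 over unstimulated was -0.13 on array 1 and -0.024 on array 2, below 0 on both. The mean was -0.078 ± 0.077 (SD, n = 2 arrays), with a limma 95% interval of -0.27 to 0.11 and an adjusted p of 1. On the fold scale that interval runs from 0.831 to 1.08. Normexp correction with an offset of 50, which steadies dim spots, also shrinks ratios: at the signal of the Aqp2 probe a doubling would read as 0.78 on the log2 scale instead of 1. With no offset the mean was -0.11, and with the scanner software's own ratio -0.15.

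The basolateral channels Aqp3 and Aqp4 stayed at the edge of detection. Aqp3, which carries water and glycerol, has 1 probe (A_51_P245090, chr4:41039962-41040021, minus strand). It read 43.8 with FGF23 and 61.6 without on array 1, and 71.5 and 46.9 on array 2. Although flagged in Cy5, all 4 readings lay below the 99th percentile of negative controls. Its log2 ratios were -0.040 and 0.12.

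Aqp4, the other basolateral channel, has a pair of probes 3413 bases apart on chromosome 18. The first (A_55_P2000369) read 53.0 with FGF23 and 67.4 without on array 1, and 80.3 and 51.3 on array 2, each above the negative-control percentile of its channel. Its log2 ratios were above 0 on both arrays, at 0.039 and 0.11. The second (A_55_P2031939) read 43.7 and 69.9 on array 1 and 63.4 and 52.1 on array 2, and its ratios were below 0 on both, at -0.22 and -0.11. The probes thus differed in sign on both arrays, by 0.24 on average, the largest gap among the 5 member genes with a pair of probes. Neither was kept, so the gene has no tested value.

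Aqp5 lies next to Aqp2 in the RefSeq gene order of GRCm38.p6, with Aqp6 after it, and is best known from secretory glands and lung. Its first probe (A_55_P1990121, chr15:99425138-99425197) read 55.6 with FGF23 and 64.1 without on array 1, and 54.0 and 51.3 on array 2. The second, whose sequence stands above, read 45.3 and 64.4 on array 1 and 65.7 and 47.5 on array 2, below the negative-control percentile throughout. Neither probe held 1 sign: the log2 ratios were 0.090 and -0.082 for the first and -0.17 and 0.099 for the second. Of this cluster of neighbouring aquaporin genes, Aqp2 was well above background in all 4 channels, Aqp5 in Cy5 only, by its second probe on both arrays, and Aqp6 in none.

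Aqp1, the constitutive channel of the proximal tubule and thin descending limb, was detected in all 4 channels although dim. Its probe (A_51_P125205, chr6:55298480-55298539, plus strand) read 67.9 with FGF23 and 90.2 without on array 1, and 75.6 and 58.9 on array 2. Its log2 ratio changed sign between the arrays, from 0.14 on array 1 to -0.078 on array 2. The mean was 0.031 ± 0.15 (SD, n = 2 arrays), with a limma 95% interval of -0.17 to 0.23 and an adjusted p of 1. The sign of that mean also turned with the scanner software's ratio (-0.027) and with median centring in place of loess (-0.031), so no direction can be given. At this dim signal a doubling would read as 0.55. The scanner software's ratio, without the offset, was 0.37 on array 1 and -0.43 on array 2.

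Aqp11, a distantly related aquaporin of intracellular membranes whose loss in mice gives cystic kidneys, had the highest ratio among the aquaporins tested. Its first probe (A_55_P1995507, chr7:104874889-104874948, minus strand) read 71.9 with FGF23 and 88.8 without on array 1, and 107 and 62.0 on array 2. The log2 ratios were 0.24 and 0.084, above 0 on both arrays. The mean of 0.16 ± 0.11 (SD, n = 2 arrays) had a limma 95% interval of -0.030 to 0.35, an unadjusted p of 0.0915 and an adjusted p of 1. It moved by over 1.5 times with the processing: 0.32 with no offset (adjusted p 0.73) and 0.45 with the scanner software's ratio (adjusted p 0.63), neither past the threshold. A doubling would read as 0.59 at this probe's signal.

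The second Aqp11 probe, 2593 bases away, did not repeat that pattern. It read 54.7 with FGF23 and 85.5 without on array 1, and 106 and 55.7 on array 2, all above the negative-control percentile, though flagged in Cy5 only. Its log2 ratios were -0.12 and 0.21. The deposited p-value of the scanner's error model for this spot was 0.112 on array 1 and 0.00835 on array 2, with log2 ratios of -0.61 and 0.95. The ratio of Cy5 over Cy3 was above 0 on both arrays, 0.17 on average after loess. The mean of FGF23 over unstimulated was 0.047 ± 0.24 (SD, n = 2 arrays), and a dye effect was not tested. By that same error model 2 of 14 member spots had p under 0.05 on array 1 (2.91% of all spots), the first Aqp11 and second Aqp4 probes, 1 on array 2 (2.89%) and 0 on both.

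Slc14a2 had a ratio above 0 on both arrays, as processed with loess. The first Slc14a2 probe (A_52_P198885), assigned to 1 of the gene's RefSeq transcripts, read 726 with FGF23 and 1269 without on array 1, and 1566 and 648 on array 2. Its log2 ratio was 0.21 on each array. The mean of 0.21 ± 0.0040 (SD, n = 2 arrays), a fold of 1.16 with a limma 95% interval of 1.02 to 1.32, had an unadjusted p of 0.0286 and an adjusted p of 1. It stood at rank 452 of 19220 genes by p, and was the 1 of 4 tested members with an unadjusted p under 0.05, beside 3.91% of all genes in either direction and 2.6% in the higher one. The interval rests on limma's moderated standard error of 0.086 and not on the SD of 0.0040. At the signal of this probe the offset matters little, since a doubling would read as 0.96. The mean lay between 0.20 and 0.22 in each alternative that kept this probe alone, but the single sign did not hold in all of them. With median centring, which leaves any dye effect that varies with brightness in the ratios, array 1 read -0.42 and array 2 read 0.82 (SD 0.88).

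The second Slc14a2 probe (A_55_P1964028), 37070 bases away and assigned to another transcript, did not read the same on array 1. It read 92.1 with FGF23 and 163 without on array 1, and 167 and 81.3 on array 2. Its log2 ratios were -0.0081 and 0.24, so array 1 was near 0 here and at 0.21 in the first probe. The mean was 0.12 ± 0.18 (SD, n = 2 arrays). Fitted with all 26941 kept probes in limma, the unadjusted p was 0.026 for the first probe and 0.22 for the second, and 4.01% of all kept probes had one under 0.05. After adjustment 0 of 5 kept member probes passed, beside 0.0854% of all kept probes. Averaging both gave the gene 0.16.

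Slc14a1 was not detected. Its probe (A_51_P312336) read 40.8 with FGF23 and 49.3 without on array 1, and 36.8 and 40.4 on array 2. Each reading lay below the 99th percentile of negative controls, and the ratio of signal to local background ran from 0.856 to 1.20. The log2 ratios of this undetected spot were -0.070 and -0.16. Slc14a1 and Slc14a2 are neighbours on chromosome 18, and of the pair Slc14a2 alone was flagged.

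**Figure D2:**
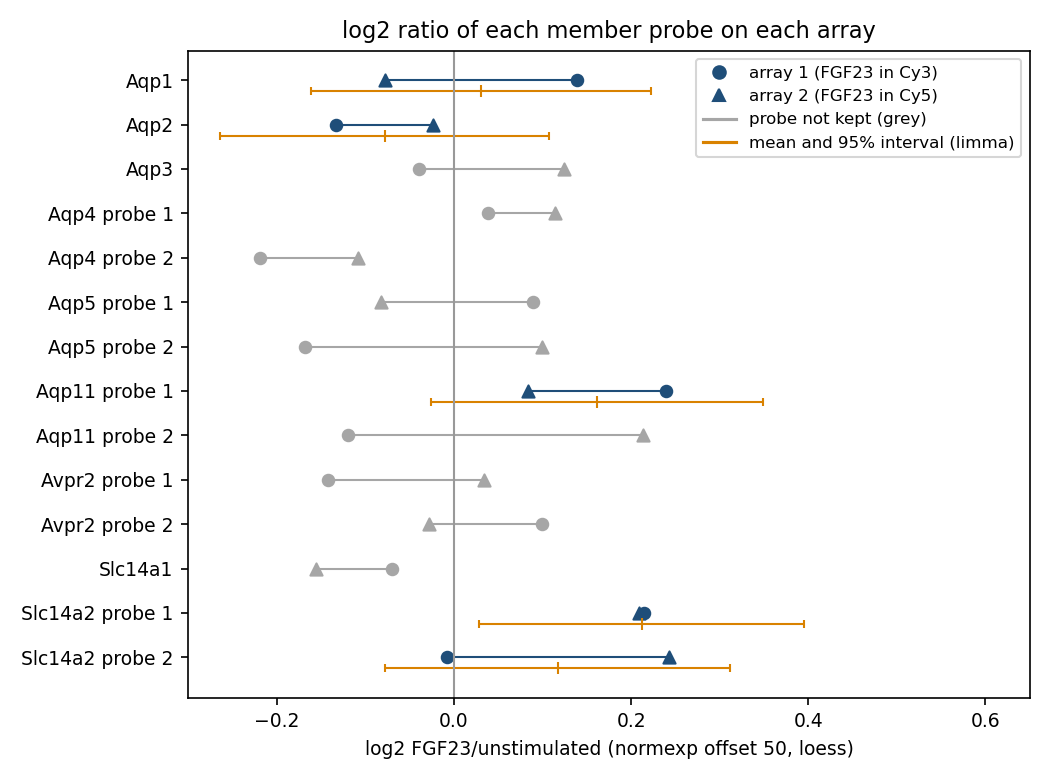
The log2 ratio of FGF23 over unstimulated for each member probe, as circles for array 1 and triangles for array 2. Kept probes are blue, with their mean and limma 95% interval in orange just under them, and probes not kept are grey. The first Slc14a2 probe has both arrays at 0.21, and the interval of each other kept probe includes 0.

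Over all members, 6 of 14 probes had 1 sign on both arrays, and 47.4% of all probes did. Among the 4 genes tested 3 did, Aqp2 below 0 and Aqp11 and Slc14a2 above 0, beside 46.2% of all genes. With median centring 1 of 4 did, Aqp11, beside 6.37% of all genes. Aqp2 then read -0.51 on array 1 and 0.30 on array 2. Across all genes tested, the ratios of the 2 arrays correlated at -0.12 (Pearson) and -0.084 (Spearman). The arrays thus did not repeat each other over the genes as a whole. The median log2 ratio of these 4 genes was 0.096, with 0.18 on array 1 and 0.030 on array 2, and that of all genes was -0.00068. The 5 genes with a pair of probes differed between them by 0.24 (Aqp4), 0.038 (Aqp5), 0.11 (Aqp11), -0.090 (Avpr2, first minus second) and 0.094 (Slc14a2). Over 5361 genes with 2 kept probes, the median size of that difference was 0.057 and its 90th percentile 0.16. Of the members, Slc14a2 alone had both probes kept.

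**Figure D3:**
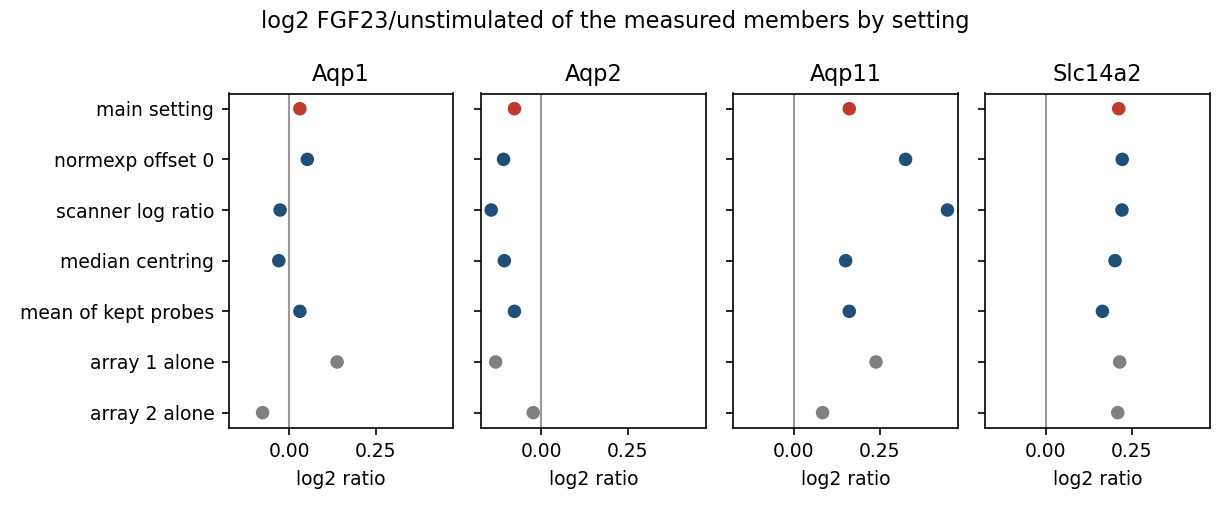
The log2 ratio, averaged over both arrays unless 1 is named, of the 4 tested members under the main setting (red), 4 other ways of processing (blue) and from each array alone (grey). Aqp1 crosses 0, Aqp2 stays below 0, Aqp11 and Slc14a2 stay above 0, and Aqp11 spreads the most, from 0.084 on array 2 to 0.45 with the scanner software's ratio.

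Other genes of the pathway were taken from lists of 72 genes, all on the array, of which 53 were bright enough to test. None passed in either direction, and the median log2 ratio was 0.027. By limma 1 of the 53 had an unadjusted p under 0.05, beside 3.91% of all genes. None of the 6 other aquaporins was measured: the best probes of Aqp7 and Aqp8 had 2 flags of 4, and Mip, Aqp6, Aqp9 and Aqp12 had none. Of 5 other vasopressin and oxytocin genes the oxytocin receptor Oxtr alone was measured, at -0.0084 ± 0.055 (SD, n = 2 arrays).

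Between receptor and channel, 24 of 27 cAMP and protein kinase A genes were tested, with a median of 0.022. The regulatory subunit Prkar2a had a log2 ratio of -0.14 ± 0.14 and the anchoring protein Akap11 one of 0.11 ± 0.10 (SD, n = 2 arrays), the largest in size on that list. All 22 genes of Aqp2 vesicle traffic and turnover were tested, with a median of 0.038. Myo5b, a motor that carries recycling vesicles to the membrane, read 0.27 on array 1 and 0.19 on array 2. Its mean of 0.23 ± 0.055 (SD, n = 2 arrays) had a limma unadjusted p of 0.0187 and an adjusted p of 1. The ubiquitin ligase Nedd4l had 0.16 ± 0.18.

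Prostaglandins, extracellular ATP and endothelin restrain water reabsorption in this segment, and 6 of 12 genes of these systems were tested, with a median of -0.0046. The cyclooxygenases, which make the prostaglandin precursor, had the largest values. Ptgs2, the inducible form, was at -0.12 and -0.23 on the arrays (mean -0.17 ± 0.075, SD, n = 2 arrays), and Ptgs1, the constitutive form, at 0.19 and 0.14 (0.17 ± 0.035). Neither passed, with limma unadjusted p of 0.0681 and 0.0771 and adjusted p of 1 for both. Of the 53, both arrays were above 0 in 21 and below 0 in 7, beside 23.9% and 22.3% of all genes.

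**Figure D4:**
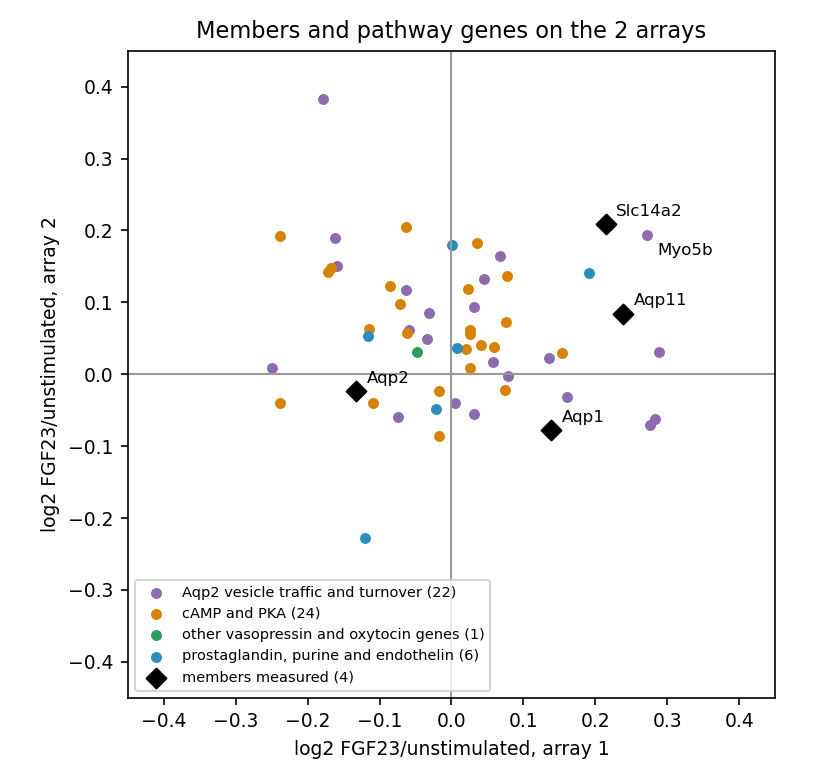
The log2 ratio of FGF23 over unstimulated on array 1 (x axis) and array 2 (y axis) for the 4 tested members (black diamonds) and the 53 tested pathway genes, coloured by list. Slc14a2, Aqp11 and Myo5b lie above 0 on both arrays, Aqp2 below 0 on both, and Aqp1 on opposite sides.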

How the data were processed

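Per the file headers, the 2 two-colour arrays lay on 1 slide with 1 scan time and were read by Feature Extraction 11.5.1.1. The deposited files hold spot intensity in linear units, the software's background-subtracted, dye-normalized log10 ratio (Cy5/Cy3) and a p-value of that ratio. Mean signals were corrected with normexp (offset 50), normalized by loess within each array with control spots at weight 0, and turned to FGF23 over unstimulated with limma 3.58.1 in R 4.3.3. Control and outlier spots were left out (no member spot was an outlier or saturated). Of 55681 probes 26941 were kept. The brightest kept probe stood for a gene. The fit of lmFit and eBayes had 1 residual degree of freedom and no dye term. Its recovery of planted changes was checked on simulated data with independent errors and no dye effect. The share of false calls was checked only with the prior degrees of freedom taken as known, so that check does not cover the fit used. All 14 member probes matched RefSeq transcripts by accession. Every member and probe was named, and per pathway list the genes past the test or, failing these, those with the largest mean log2 ratio in size. The members and lists were chosen with earlier results of these data known. Depth is not defined for arrays, and their number limits the precision. Alternatives were the correction, normalization, filter, prior, probe summary and each array alone.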

Additional observations from a re-analysis of the deposited data

How the results depend on the processing

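No member gene, member probe or pathway gene passed the limma test under any alternative run: the scanner software's ratio, no offset, median centring, no filter, a stricter filter, an intensity trend with a robust prior and, for genes, the mean of a gene's kept probes. The lowest adjusted p of a member gene was 0.63 (Aqp11, scanner ratio; up to 1 elsewhere). The sign of Aqp1 reversed with the scanner ratio (-0.027) and median centring (-0.031), for the gene and its probe alike; the cause was not tested. With a looser filter 7 member genes were kept in place of 4, and no test was run with it. The median of the members kept was 0.060 with median centring, 0.14 with no offset and, over 9 genes with no filter, 0.031. From single arrays it ranged from 0.030 (array 2) to 0.18 (array 1), with no test, since 1 array leaves no residual degrees of freedom. No paired analysis was possible because there is 1 group of ratios, with no replicate number shared between groups; each ratio already compares the RNAs within an array. Of the 5 genes without a kept probe, Avpr2 and Slc14a1 had no flag, and Aqp3, Aqp4 and Aqp5 were flagged in Cy5 only, which the swap puts on a different RNA on each array.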
